A study of Homo sapiens with 24 samples.

Results

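The subject is a group of 157 array probes whose transcripts were lower whenever miR-125b was overexpressed in SH-SY5Y cells, with or without retinoic acid, and were not higher when miR-125b was knocked down. SH-SY5Y is a human neuroblastoma line that can be driven toward a neuron-like state, and retinoic acid (RA) is an agent that does so. Total RNA was profiled on 24 Illumina arrays in 8 groups of 3. Without RA there were a scrambled control (SCR) and OE, each on day 2 and on day 4, and with RA, on day 2 alone, there were SCR, OE, a knockdown (KD) and the combination of both (OE+KD). OE is read here as overexpression of miR-125b and KD as its knockdown. The source names write DP where the titles write OE, an abbreviation that no label explains. Nothing used here gives the dose of RA, the reagents that delivered OE and KD or how cultures were kept apart, since the growth protocol among the labels describes other cells and reagents. The p-values given here therefore rest on the spread between the 3 arrays within each group, pooled over all 8 groups. That spread may be technical. No level of miR-125b itself was analysed here, and the OE and KD labels rest on the titles. The tables used here do not pair probe identifiers with genes, so members are named by identifier, it is not known which of them share a gene, and the markers of the cell line could not be read.

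The members were chosen on the authors' normalized intensities, with values under 50 raised to 50, as log2 means of the 3 arrays of each group. A probe was kept when its highest group mean was at least 7. It became a member when OE minus SCR was -0.8 or lower in each of the 3 settings (without RA on day 2, without RA on day 4, with RA on day 2), when RA moved its SCR level by less than 0.4, and when KD minus SCR was under 0.25. Of 20589 probes, 9069 met the level minimum, 212 of these were lowered by OE in all 3 settings, and 44 of the 212 were then left out for their difference with RA. Another 11 were left out for a higher level with KD, which left 157. The OE, RA and KD differences from SCR thus chose the members and are given as descriptions. Where a count of calls is printed for one of them, or for a difference between them, it stands beside the share of all probes and nothing is read from it.

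A microRNA guides a silencing complex to messenger RNAs that pair with it, mostly in their untranslated tails, and the paired transcripts are translated less and often degraded sooner. Pairing of the seed, bases 2 to 8 of the microRNA, is the main determinant of which transcripts are bound. miR-125b is abundant in the brain and is known for its part in neuronal differentiation. Its arm miR-125b-5p is made from a pair of genes, MIR125B1 and MIR125B2, and shares its seed with miR-125a-5p and miR-4319, so these are shown with the seed in capitals, 5′ to 3′, from RefSeq (GRCh38.p14). Among 2370 mature human microRNAs in that table, these 3 carried this seed. Its perfect match in a transcript reads CUCAGGG. Without gene names the members could not be searched for it. MIR125B1 lies at chr11:122099809-122099830 on the minus strand, MIR125B2 at chr21:16590253-16590274 on the plus strand, MIR125A at chr19:51693268-51693291 on the plus strand and MIR4319 at chr18:44970140-44970156 on the minus strand, each span being that of the mature sequence.
hsa-miR-125b-5p: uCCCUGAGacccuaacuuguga
hsa-miR-125a-5p: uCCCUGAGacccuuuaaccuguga
hsa-miR-4319: uCCCUGAGcaaagccac

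Apart from the values that chose them, every value is a log2 intensity or a log2 difference from the scanner table, after background correction and quantile normalization. Of the 20589 probes, 10691 (51.9%) were bright enough to be tested, and all 157 members were among them. Mean scanner intensity per array was 617.8 to 1134.2, and replicates correlated with r of 0.978 to 0.997. Residual SD per array was 0.074 to 0.225 log2, highest on replicate 2 of OE with RA. This array also had the lowest mean over the members among all 24, so some of the results that rest on it are given without it as well. "Called" stands for a limma adjusted p under 0.05, with Benjamini-Hochberg adjustment over all 10691 probes.

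Averaged over the members, the arrays fell into separate levels by manipulation. With RA, the SCR arrays stood at 9.93, 9.91 and 9.93, the KD arrays at 9.75, 9.73 and 9.74, the OE+KD arrays at 9.35, 9.33 and 9.32, and the OE arrays at 8.95, 8.84 and 8.93. Without RA on day 2, SCR stood at 9.91, 9.88 and 9.89 and OE at 8.94, 8.93 and 8.97. On day 4, SCR stood at 9.88, 9.84 and 9.86 and OE at 8.91, 8.88 and 8.94. No OE array reached an OE+KD array, no OE+KD array reached a KD array, and no KD array reached an SCR array. The SCR and OE levels follow from how the members were chosen, and the upper limit on KD minus SCR pulls the KD level down. The OE+KD arrays took no part beyond the level minimum. Quantile normalization holds the mean of all tested probes nearly constant by design, so its value of 9.40 to 9.41 on every array is no finding.

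**Figure D1:**
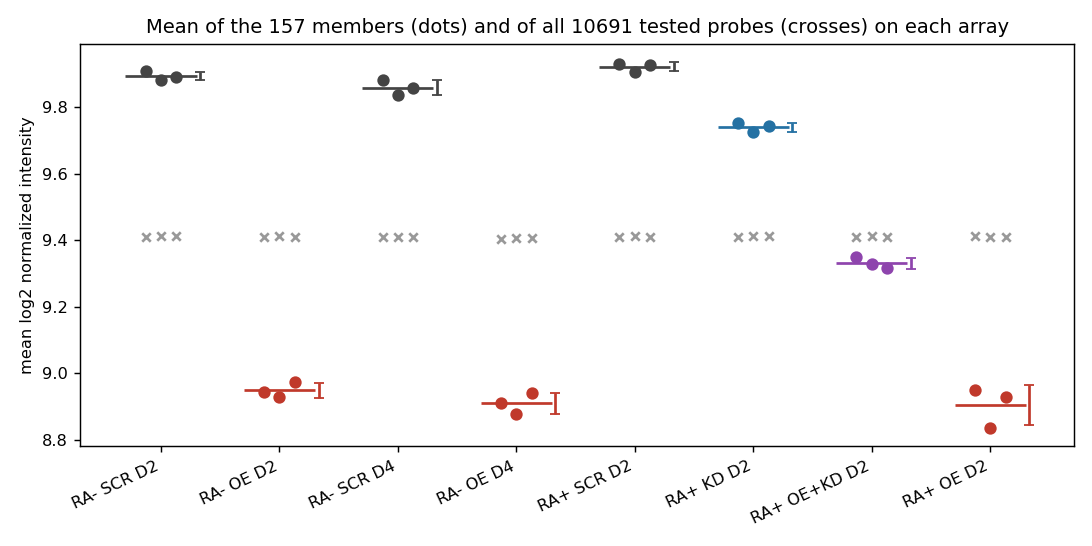
Mean log2 normalized intensity (y axis) of the 157 members (dots) and of all 10691 tested probes (crosses) on each of the 24 arrays, by group (x axis), with horizontal lines for group means and bars for the SD of 3 arrays. With RA the KD arrays lie at 9.73 to 9.75 and the OE+KD arrays at 9.32 to 9.35, between SCR and OE.

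The differences that chose the members were of similar size in the 3 settings. On the scale of the choice, the median OE minus SCR was -1.11 without RA on day 2 (2.16-fold lower), -1.14 without RA on day 4 (2.20-fold lower) and -1.20 with RA (2.30-fold lower). The lowest values were -2.80, -3.08 and -3.31. All 3 differences were at or under -1 for 83 members, and 43 members had a smallest fall between 0.8 and 0.9. The member nearest the limit had a smallest fall of -0.801 and the nearest probe outside had -0.799. Another 65 probes met the other limits and had a smallest fall between -0.8 and -0.7, just short of the OE limit. In 2 members the OE level was at the floor of 50 on all 3 arrays in at least 1 setting, so the size of the fall is limited there. Next to the KD limit, the members inside had KD minus SCR of 0.22, 0.21 and 0.21, and the probes outside had 0.25, 0.26 and 0.26. Normexp with its offset compresses these values, and on the fitted scale the OE medians were -0.92, -0.89 and -0.99.

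ILMN_21370 was the member lowered most. Without RA it measured 10.11, 10.21 and 10.15 on the day 2 SCR arrays and 7.96, 7.80 and 8.02 on the day 2 OE arrays, and on day 4 it measured 10.39, 10.24 and 10.30 in SCR and 7.87, 7.95 and 7.82 in OE. With RA it measured 10.09, 10.04 and 10.17 in SCR, 9.11, 9.15 and 9.31 in KD, 8.37, 8.44 and 8.36 in OE+KD, and 7.72, 7.46 and 7.40 in OE. All 4 groups with RA were apart on every array, in the order OE, OE+KD, KD, SCR. ILMN_25412 came next. With RA it measured 9.39, 9.50 and 9.42 in SCR, 9.49, 9.38 and 9.45 in KD, 8.35, 8.56 and 8.48 in OE+KD, and 7.73, 7.73 and 7.84 in OE. Its KD and SCR arrays overlapped fully, and its OE+KD arrays lay apart from both sides.

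**Figure D2:**
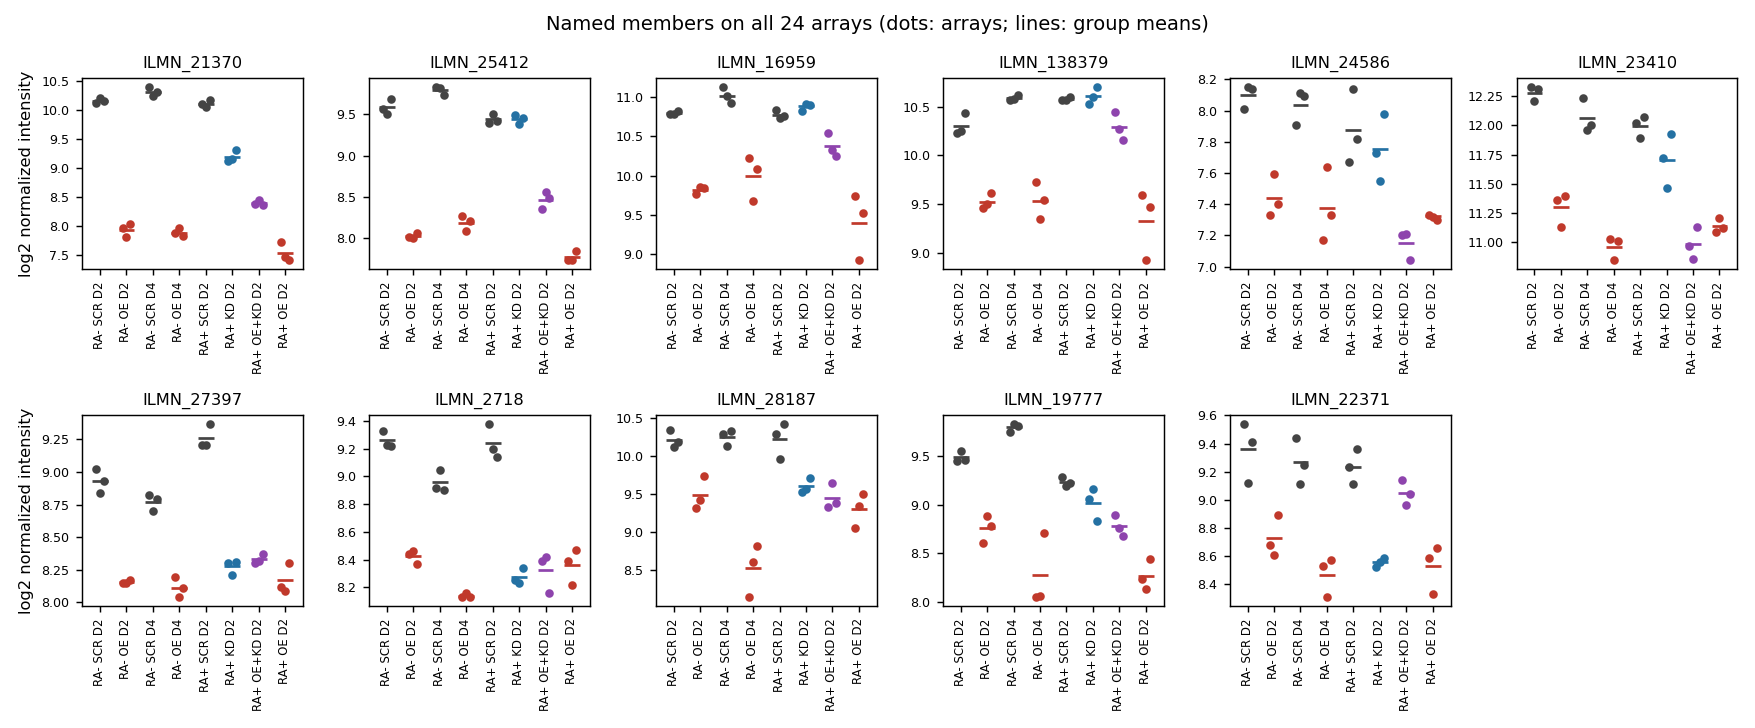
Log2 normalized intensity (y axes, each with its own range) of 11 named members in the 8 groups (x axes); dots are arrays and lines are group means of 3. ILMN_21370 stands at 9.11 to 9.31 with KD and 8.36 to 8.44 with OE+KD, whereas ILMN_27397 stands at 8.21 to 8.31 with KD and 8.30 to 8.37 with OE+KD.

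The first comparison asked whether adding KD to OE moved the members. With RA, 111 of the 157 members (70.7%) were higher in OE+KD than in OE and 0 were lower, where 9.17% of all tested probes were called higher and 8.44% lower (limma). The median difference was 0.42 log2 (1.34-fold), with a range of -0.17 to 0.98, against a median of 0.00 over all tested probes. Of the members, 109 had OE+KD arrays that all lay above all OE arrays, against 12.9% of the tested probes. The OE arrays had been chosen low, which favours a return upward in this comparison. The count was 95 without replicate 2 of OE with RA and 29 when the other groups were left out of the fit, which leaves the spread to be estimated from 6 arrays. Residual SD was 0.161, 0.225 and 0.138 on the OE arrays with RA and 0.123, 0.094 and 0.110 on the OE+KD arrays. The fit of all groups uses a spread shared by them. What lowered the count was not tested.

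ILMN_16959 and ILMN_138379 had the largest rises. ILMN_16959 measured 9.74, 8.92 and 9.52 in OE with RA and 10.55, 10.33 and 10.25 in OE+KD, beside 10.84, 10.73 and 10.76 in SCR and 10.83, 10.92 and 10.90 in KD. Its OE+KD arrays lay above all OE arrays and below all SCR and KD arrays. The rise was 0.98 log2 (SE 0.14, limma adjusted p = 5.73e-05). It was 0.74 without replicate 2 of OE, its lowest array. ILMN_138379 measured 9.59, 8.92 and 9.47 in OE with RA, 10.44, 10.27 and 10.16 in OE+KD, 10.57, 10.57 and 10.60 in SCR, and 10.53, 10.60 and 10.70 in KD. Its OE+KD arrays were again apart from the OE arrays below and from SCR and KD above, with the same OE array lowest. Its rise was 0.96 log2 (SE 0.12, limma adjusted p = 1.22e-05). Without that array the rise was 0.76. Against SCR its OE+KD difference was -0.29 (limma adjusted p = 0.0818), so the remaining gap was not called.

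At the other end, 11 members had a lower mean in OE+KD than in OE, none of them called. ILMN_24586 measured 7.33, 7.32 and 7.30 in OE with RA, 7.20, 7.21 and 7.04 in OE+KD, 7.67, 8.14 and 7.82 in SCR, and 7.73, 7.55 and 7.98 in KD. All OE+KD arrays lay under the OE arrays, with an OE+KD minus OE difference of -0.17 (SE 0.12, limma adjusted p = 0.336). ILMN_23410 measured 11.08, 11.20 and 11.12 in OE, 10.96, 10.85 and 11.13 in OE+KD, 12.02, 11.89 and 12.07 in SCR, and 11.72, 11.46 and 11.93 in KD. Its OE and OE+KD arrays overlapped, and the difference was -0.15 (SE 0.11, limma adjusted p = 0.335).

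Most members stayed lower in OE+KD than in SCR. Of the 157 members, 135 (86%) were lower in OE+KD than in SCR and 0 were higher, where 15% of all tested probes were called lower and 14.1% higher (limma). The median difference was -0.58 log2 (1.5-fold lower) and ran from -1.71 to -0.08, so the estimate was below 0 for all 157. The SCR arrays had been chosen high, which favours a fall here. ILMN_21370 fell by 1.71 (SE 0.09, limma adjusted p = 5.35e-13), with no overlap of its arrays. Set side by side, 89 members (56.7%) were called both higher than OE and lower than SCR, 22 were called higher than OE and not called against SCR, and 46 were called lower than SCR and not called against OE. Over all tested probes 9.17% were called higher than OE and 15% lower than SCR, and the joint shares were not counted. On 95 members every OE+KD array lay above every OE array and below every SCR array, against 3.69% of the tested probes.

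The position of each member between SCR and OE with RA, set at 0% for SCR and 100% for OE, puts these on one scale. The median member stood at 56.5% in OE+KD, with an interquartile range of 43.6% to 72.7%, and at 16.6% in KD, from 0.327% to 29.4%. In OE+KD, 58 members stood under 50%, 88 between 50% and 100%, and 11 over 100%. In KD, 38 stood under 0%, 106 between 0% and 50%, 12 between 50% and 100%, and 1 over 100%. These positions divide by a difference that chose the members, so they are descriptions.

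**Figure D3:**
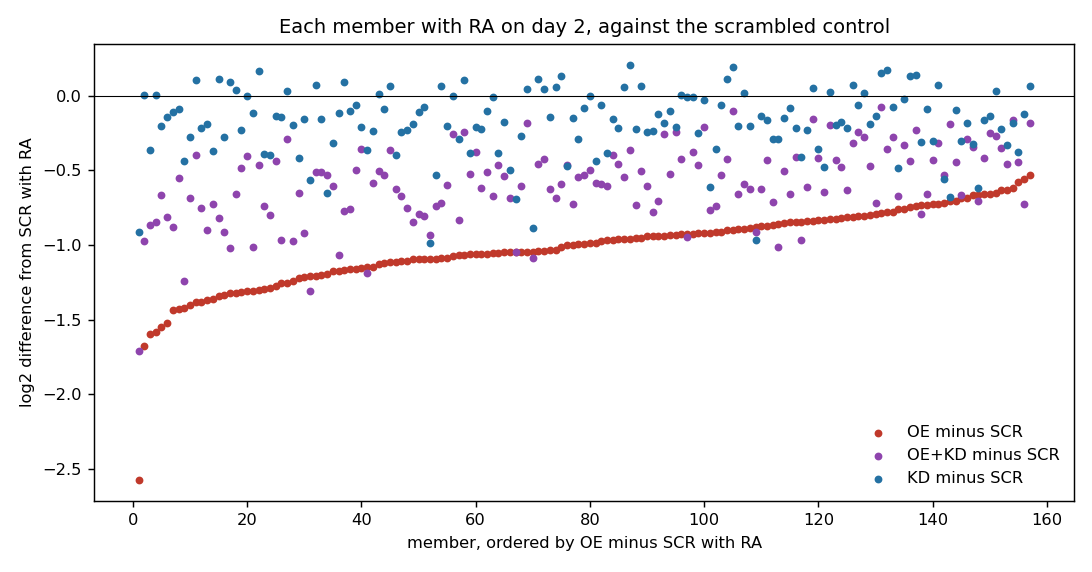
Log2 difference from the SCR arrays with RA (y axis) of OE (red), OE+KD (purple) and KD (blue) for each of the 157 members, ordered by OE minus SCR (x axis). The OE+KD points run from -1.71 to -0.08 and mostly lie above the OE points, and the KD points run from -0.99 to 0.21.

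KD minus SCR entered the choice through an upper limit, which cuts off high values and pulls its median down. The median KD minus SCR was -0.21 on the scale of the choice and -0.16 on the fitted scale, with a range of -0.99 to 0.21 on the latter. On the fitted scale 35 members were called lower and 0 higher, beside 7.7% and 8.61% of all tested probes. Nothing is read from these counts. On the scale of the choice, 37 members were above 0, 60 were under -0.25 and 6 were at or under -0.8.

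The 2 members with the lowest KD minus SCR stood about as low with KD as with OE. ILMN_27397 measured 9.21, 9.21 and 9.37 in SCR with RA, 8.30, 8.21 and 8.31 in KD, 8.12, 8.09 and 8.30 in OE, and 8.30, 8.32 and 8.37 in OE+KD. The KD arrays overlapped both the OE and the OE+KD arrays, and all 9 manipulated arrays lay under all SCR arrays. Its OE+KD difference was 0.16 against OE (limma adjusted p = 0.153) and 0.05 against KD (limma adjusted p = 0.746). ILMN_2718 measured 9.38, 9.20 and 9.14 in SCR, 8.25, 8.23 and 8.34 in KD, 8.39, 8.22 and 8.47 in OE, and 8.39, 8.42 and 8.16 in OE+KD. The 3 manipulated groups overlapped one another, well under SCR. Its OE+KD difference was -0.04 against OE (limma adjusted p = 0.793) and 0.05 against KD (limma adjusted p = 0.799).

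Many members were lower in OE+KD than in KD alone. OE+KD was lower than KD at 85 members and higher at 1, where 5.24% of all tested probes were called lower and 3.59% higher (limma), and the median difference was -0.40. ILMN_25412 fell by 0.98 (SE 0.08, limma adjusted p = 8.03e-09), with its OE+KD arrays, given above, all under its KD arrays. The 1 member that was higher, ILMN_22371, was singled out after its values were seen. It measured 8.52, 8.56 and 8.59 in KD with RA, 8.59, 8.33 and 8.66 in OE, 9.14, 8.96 and 9.04 in OE+KD, and 9.23, 9.11 and 9.36 in SCR. Either manipulation alone left it low and overlapping, while its OE+KD arrays lay above both and overlapped the SCR arrays. It was 0.49 higher in OE+KD than in KD (SE 0.11, limma adjusted p = 0.00582) and 0.52 higher than in OE (SE 0.11, limma adjusted p = 0.00302). This member is also the one nearest the OE limit of the choice.

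A split by KD minus SCR, a value that entered the choice, is given as a description. Of the 35 members called lower with KD, 19 rose in OE+KD over OE and 10 were lower in OE+KD than in KD. Of the other 122, 92 rose and 75 were lower, respectively. Over all tested probes, 9.17% were called higher in OE+KD than in OE and 5.24% lower in OE+KD than in KD. The median OE+KD minus KD was -0.19 in the 35 and -0.43 in the 122, and the median OE+KD minus OE was 0.32 and 0.44. These splits share arrays with the comparisons and were not tested against each other. By the order of the group means, 102 members ran OE, OE+KD, KD, SCR from low to high, and 38 ran OE, OE+KD, KD with KD at or above SCR.

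As a description, the KD effect can be set side by side with and without OE. The difference of the KD effect with OE (OE+KD minus OE) from that without OE (KD minus SCR) was called positive at 111 members and negative at 0, where 6.41% of all tested probes were called positive and 6.87% negative (limma). Its median was 0.58 log2, and it was above 0 at 155 of 157 members. ILMN_21370 had the highest value, 1.78 (SE 0.12). It stood at 10.10 ± 0.06 in SCR and 9.19 ± 0.11 in KD, and at 7.53 ± 0.17 in OE and 8.39 ± 0.05 in OE+KD (mean ± SD, n = 3 each). The choice used 3 of the 4 groups in this difference. It took members with low OE arrays, high SCR arrays and at most a small rise with KD. That favours a positive value, so nothing is read from the count. Without replicate 2 of OE with RA the count was 114.

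Because the choice used the SCR, OE and KD arrays, it was also made on 2 of the 3 replicate numbers and the differences were read on the arrays of the number left out, a reading added after the data were seen. This chose 154, 161 and 163 probes, of which 134, 133 and 143 were members. On the arrays left out, all chosen probes were below 0 for OE minus SCR in each setting, with medians of -0.95, -1.01 and -0.98 with RA. The median OE+KD minus OE was 0.36, 0.44 and 0.37, and 145, 136 and 147 of the probes were above 0. The median OE+KD minus SCR was -0.60, -0.58 and -0.59, and OE+KD minus KD was -0.42, -0.43 and -0.43. KD minus SCR had medians of -0.11, -0.14 and -0.15. Over all tested probes the medians of these 5 comparisons with RA lay between -0.02 and 0.01. By these medians the chosen probes stood in the same order on arrays that had not chosen them. Most of these probes were members, and arrays of 1 replicate number are not known to come from separate cultures. The reading is therefore a description and gives no independent support.

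**Figure D4:**
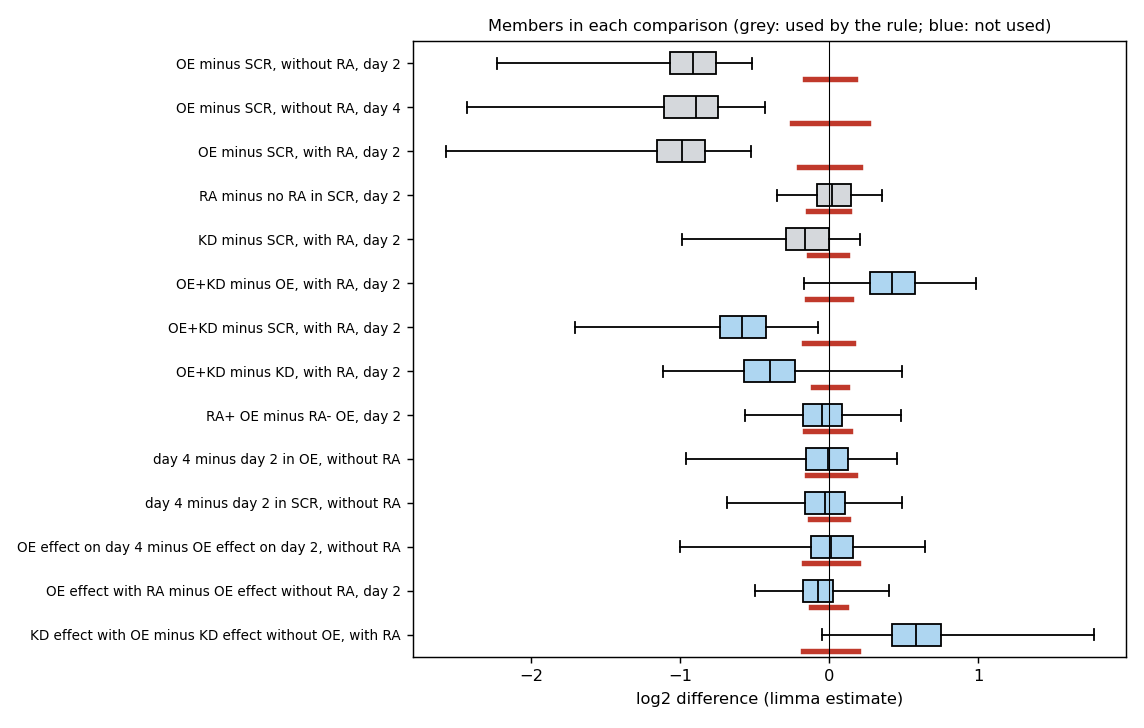
Log2 differences (x axis, limma estimates) of the 157 members in 14 comparisons (y axis); boxes show the median and quartiles, whiskers the lowest and highest member, and red bars the quartiles of all 10691 tested probes. Grey boxes mark comparisons that chose the members and blue boxes those that did not; OE+KD minus OE has a median of 0.42 and OE+KD minus SCR of -0.58.

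Neighbouring sets of probes show what the KD limit set aside. The 11 probes left out for a higher level with KD had a median OE+KD minus OE of 0.52, with 10 called higher, and a median OE+KD minus SCR of -0.40, with 6 called lower. They stood at 29.3% of the way from SCR to OE in OE+KD. The 44 probes left out for their RA difference had a median OE+KD minus OE of 0.26, with 21 called higher. Over all tested probes 9.17% were called higher and 8.44% lower in OE+KD than in OE, and 15% lower in OE+KD than in SCR. A mirror set, raised by OE by at least 0.8 in all 3 settings and kept within the same RA limit, held 79 probes. Its median KD minus SCR was 0.55, with 59 called higher and 1 lower, its median OE+KD minus OE was -0.25, with 32 called lower and 1 higher, and its median position was 56.3% in KD and 75.7% in OE+KD. For KD minus SCR, 8.61% of all tested probes were called higher and 7.7% lower. The OE arrays of the sets of 11 and 44 were chosen low and those of the mirror set high, which favours a return in OE+KD. The mirror set had no limit on KD, so its KD position and that of the members are not a like comparison, and no difference between these sets was tested.

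RA was set against no RA in SCR cells and in OE cells. In SCR cells the RA limit of the choice bounds the difference, and 9 members were called higher and 7 lower, beside 9.31% and 10.1% of all tested probes, from which nothing is read. In OE cells 9 members were higher and 17 lower with RA than without, or 5.73% and 10.8%. Of all tested probes, 11.3% were called higher and 11.6% lower (limma). The choice did not set these OE groups against each other. It did take both low against their SCR and bounded the RA difference in SCR cells. That favours a small difference here, so nothing is read from the counts. The median was -0.05. Without replicate 2 of OE with RA, 14 were higher and 14 lower, with a median of -0.01. Within replicate numbers 1, 2 and 3 the member median was -0.02, -0.09 and -0.05. The lean toward lower values was thus small and largest on replicate 2, and no direction is read from the split. ILMN_21370 measured 7.96, 7.80 and 8.02 without RA and 7.72, 7.46 and 7.40 with RA in OE cells on day 2, with no overlap, and fell by 0.40 (SE 0.09, limma adjusted p = 0.00129). The count of 26 was 16 without replicate 3 of OE without RA on day 2, and 6 when the other groups were left out of the fit.

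Whether the OE effect differed by RA is a question set between values that chose the members, since the choice bounded the OE difference in both settings and the RA difference in SCR cells. The difference is therefore a description. Over the members 0 were called by limma, 9 had an unadjusted p under 0.05, and 1 was called with array weights, beside 0.468% of all tested probes called positive and 0.271% negative. The median of this difference was -0.07, and it was below 0, a deeper fall with RA, at 109 of 157 members. The median was -0.03 without replicate 2 of OE with RA, and 0.04 with median scaling, so its direction is relative to the scaling. The median SE of a member's difference was 0.15. As a description across members, the day 2 OE differences with RA and without it gave r = 0.81 (n = 157, no array in common).

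Between day 2 and day 4, calls among the members went in both directions, with a lean toward lower values in SCR cells. The choice did not compare the days, but it used all groups compared here, taking SCR high and OE low. In OE cells 17 members had risen by day 4 and 27 had fallen, or 10.8% and 17.2%, where 13.3% of all tested probes were called higher and 13.3% lower (limma), with a median of -0.01. Median scaling in place of quantile normalization turned this split to 30 higher and 14 lower, having moved the median of all probes by 0.14. No direction is read from the split. In SCR cells 6 were higher and 21 lower, or 3.82% and 13.4%, with a median of -0.03. Of all tested probes, 5.79% were called higher and 6.51% lower, a more even split. What lies behind the lean of the members was not tested. That count of 27 was 57 with array weights.

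The difference of the OE effect between the days is likewise set between values that chose the members, both of which had to be -0.8 or lower, and is given as a description. It was called at 12 members, 6 with a deeper fall on day 4 and 6 with a smaller one, where 7.02% of all tested probes were called toward the first and 5.88% toward the second (limma). The median difference was 0.01. Of the 6 with a deeper fall, 5 were also called lower on day 4 in OE cells and 1 higher in SCR cells. Of the 6 with a smaller fall, 3 were called higher in OE cells and 2 lower in SCR cells. The count was 6 without replicate 3 of OE on day 2, 7 without replicate 2 of SCR on day 2, and 31 with median scaling, 25 of these smaller falls.

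ILMN_28187 and ILMN_19777 had the largest differences between days, both deeper on day 4. ILMN_28187 measured 10.34, 10.11 and 10.18 in SCR and 9.31, 9.42 and 9.74 in OE on day 2, and 10.29, 10.13 and 10.33 in SCR and 8.15, 8.61 and 8.82 in OE on day 4. The SCR arrays of both days overlapped, and all day 4 OE arrays lay under all day 2 OE arrays. The OE effect was 1.0 log2 deeper on day 4 (difference -1.0, SE 0.21). ILMN_19777 measured 9.45, 9.55 and 9.46 in SCR and 8.61, 8.88 and 8.78 in OE on day 2, and 9.75, 9.83 and 9.81 in SCR and 8.05, 8.06 and 8.71 in OE on day 4. Its SCR arrays were higher on day 4 without overlap, and its day 4 OE arrays held 2 low values and 1 within the range of day 2. The difference of its OE effect was -0.79 (SE 0.18).

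**Figure D5:**
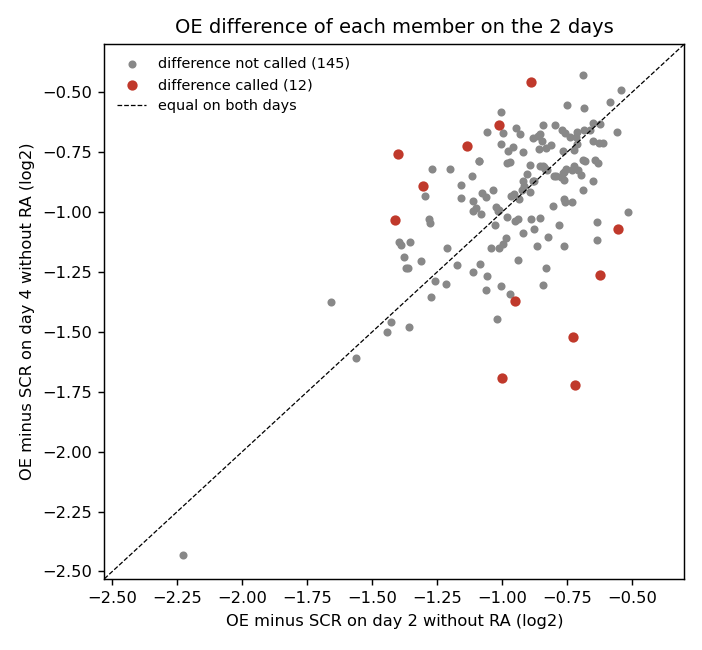
OE minus SCR without RA of each of the 157 members on day 2 (x axis) and on day 4 (y axis), both log2; red points are the 12 members whose difference between days was called, and the dashed line marks equal values. The 6 red points under the line fell more on day 4 and the 6 above it fell less.

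Within the members the size of the OE fall was weakly related to the KD values. Across members, OE minus SCR on day 2 without RA correlated with KD minus SCR with RA at r = 0.07, and with OE+KD minus OE at r = -0.24, where all tested probes gave 0.44 and -0.42. OE minus SCR on day 2 and on day 4 correlated at r = 0.57. None of these pairs share an array, members are not independent of each other, and the choice narrows the range of the values, so these are descriptions over 157 probes.

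The authors' deposited table of log2 fold changes heads its KD and OE+KD columns as set against SCR without RA. Over all probes those columns followed differences from SCR with RA (r of 0.958 and 0.967) more closely than differences from SCR without RA (0.524 and 0.561). This reading does not resolve every control. The day 2 OE column without RA followed differences from day 4 SCR (0.959) slightly more closely than from its own day 2 SCR (0.943). In that deposited table the members had a median of -0.20 for KD, with 121 of 157 below 0, and of -0.67 for OE+KD, with 157 below 0.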

How the data were processed

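The members and the gene lists were chosen with earlier results of these data known. The deposited scanner values are linear intensities with a background already subtracted (14.3% to 17.6% of values per array were negative). Another deposited table gives the authors' normalized intensities, and the last gives fold changes that are log2 per the file headers. The sources used here give no array version, scanner software, normalization method, slide or scan date. No column was left unused (0 columns).

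Normexp background correction (offset 50), quantile normalization and log2 were applied. To be tested, a probe had to exceed the percentile 50 of every array of some group. All 24 arrays entered 1 limma fit with a mean per group (16 residual degrees of freedom, Benjamini-Hochberg adjustment). No pair of arrays held identical values. The procedure was tested on simulated data. R 4.3.3, limma 3.58.1, Python 3.11.15, pandas 2.3.3, NumPy 2.4.6 and matplotlib 3.10.9 were used.

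Replicate numbers come from the titles. Arrays of 1 number deviated together at r over 0.1 in every pair for OE+KD against OE (lowest 0.108), for both comparisons of day 4 with day 2 and for the difference of the OE effect between days. The lowest r was 0.0976 for OE+KD against SCR, 0.0791 for OE+KD against KD, 0.00659 for RA in OE cells and for the difference of the OE effect with RA, and -0.082 for the difference of KD effects.

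Named members were the 2 extremes in each of OE fall, OE+KD minus OE (both ends), KD minus SCR and day difference, and 1 singled out after its values were seen. Gene lists and cell type markers could not be read without gene names. Alternatives were background, source of values, scaling, filter, block, array weights, variance trend, groups in the fit, and each array left out.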

Additional observations from a re-analysis of the deposited data

Results flagged for a closer look

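Both results are counts of members whose effect differed between groups when the difference was itself tested by limma, and both rest on differences that chose the members. At 12 of the 157 members the OE effect was not the same on day 4 and day 2 (6 deeper and 6 smaller falls on day 4, or 3.82% and 3.82%, where 7.02% and 5.88% of all tested probes were called). At 111 members the difference between the KD effects with and without OE was called, all toward a more positive KD effect with OE. The choice of members favours that direction. Of all tested probes, 6.41% were called in that direction and 6.87% in the other. Nothing is read from either count. What lies behind either was not tested. The array of OE with RA, replicate 2, had the highest residual SD (0.225) and enters the second. Without it 114 members were called.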

How the results depend on the processing

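The medians over the members for OE+KD against OE, SCR and KD, for day 4 in SCR cells and for the KD effects kept their sign under every alternative run. Of all 180 medians 14 changed sign, all in the other 4 comparisons, and 136 of 180 medians moved by less than the spread between replicates. With only the groups compared in the fit, fewer arrays estimate the spread. That fit called 29 members for OE+KD against OE (111 with all groups) and 6 for RA in OE cells (26). For the OE effect between days it called 20 (12), so the counts moved both ways. With array weights 57 were called for day 4 in SCR cells (27), 25 for the OE effect between days and 1 for the OE effect with and without RA (0). With median scaling the OE effect between days had 31 and OE+KD against OE had 77, all higher, that scaling having moved the median of all probes by 0.19 and -0.10. Without a filter on dim probes the OE effect between days had 7. The cause was not tested.

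Leaving out 1 array at a time gave 95 to 109 members for OE+KD against OE, 124 to 131 against SCR, 70 to 75 against KD, 16 to 33 for RA in OE cells, 31 to 39 and 20 to 24 for day 4 in OE and SCR cells, 6 to 13 for the OE effect between days, 0 to 0 for that with and without RA, and 96 to 117 for the KD effects. The choice itself gave 152 to 163 members without 1 array, 138 with a floor of 100, 158 with a floor of 20, 161 without the level minimum, and 79 on the normexp scale, which compresses differences, 77 of them shared.

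With the replicate number as a block the counts were 120, 144, 108, 34, 52, 36, 17, 0 and 133 in the order of the previous paragraph. None moved by over 1.5 times, and the pairing held for 4 of these 9 comparisons.

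Among 594 values of named members under alternatives, 16 lost their call, 8 gained one and 6 changed sign, all 6 being differences near 0 that were not called. With 1 array left out, ILMN_2718 ran from -0.105 to 0.0446 for OE+KD against OE and from -0.00112 to 0.13 against KD. ILMN_28187 for day 4 in SCR cells ran from -0.0106 to 0.103 with 1 array left out and was -0.0147 with median scaling. ILMN_19777 for day 4 in OE cells had a limma adjusted p of 0.0541 without day 4 replicate 1. The number of arrays limits precision, and probes near background have compressed differences.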
